A study of Mus musculus with 3 samples.

Results

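The cells described here are the *Lrrc15*-positive fibroblasts of the Day 7 skin wound, 2031 of the 22924 barcodes of that library and of the 44693 barcodes in the 3 libraries of the study. Cells were taken from dorsal skin wounds of adult male C57BL/6J mice, an inbred laboratory strain, and their transcripts were counted cell by cell with droplet libraries made 3, 7 and 14 days after wounding. The mice of these libraries carried no transgene or mutation by their labels, and the wounds had no treatment other than the injury. Each day was 1 library of cells pooled over several wounds, so no difference between days or between groups of cells has a replicate check and no test was possible. The libraries held 5158, 22924 and 16611 barcodes with 38133650, 120940799 and 112713257 unique molecular identifiers (UMIs, tags that stand for single captured transcripts) on Days 3, 7 and 14. Days 7 and 14 shared 111 barcode sequences, Days 3 and 7 shared 43, and Days 3 and 14 shared 19. A single barcode met the limits for an *Lrrc15*-positive cell in the libraries of both Day 7 and Day 14.

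Members were selected on their transcripts in 2 steps. A fibroblast gate kept Day 7 barcodes with at least 2000 UMIs, at most 10% mitochondrial UMIs, at least 1.5% of UMIs from 8 fibroblast genes (*Dcn*, *Lum*, *Pdgfra*, *Col6a1*, *Col6a2*, *Col5a1*, *Pcolce* and *Col1a2*) and under 0.3% from the myeloid genes *Lyz2*, *Tyrobp*, *Fcer1g* and *S100a9*. The gate also left out cells with *Acta2* (smooth muscle actin) at 0.15% of UMIs or more, cells with 6 or more UMIs of the division genes *Mki67*, *Top2a*, *Birc5*, *Ube2c* and *Cenpf*, and cells with 5 or more UMIs of *Cxcl5*. Of the 5547 cells that passed, those with at least 3 *Lrrc15* UMIs were the members, the 2323 with no *Lrrc15* UMI served as the reference, and 1193 had 1 or 2. Because *Lrrc15* chose the cells in the same counts, every difference between members and reference on Day 7 is a description and not a test. All intervals are 95% intervals for counting error only, exact Poisson for levels, exact conditional binomial for ratios and Clopper-Pearson for shares. Levels are in CPM, a gene's UMIs summed over the cells of a group and scaled to a total of 1000000 for that group.

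*Lrrc15* encodes a membrane protein with leucine-rich repeats. In tumour stroma and in fibrotic or inflamed connective tissue it is known as a marker of activated, matrix-producing fibroblasts, and TGFβ induces it in such cells. A healing wound holds fibroblasts in several states, among them contractile myofibroblasts with high *Acta2*, which draw the wound edges together, and *Pi16*-positive cells of the kind found in adventitia and fascia across tissues. *Lrrc15* (ENSMUSG00000052316) lies on the minus strand of chromosome 16 from 30269302 to 30283256 (GRCm38, GENCODE M21).

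The sequences before the start sites of 2 genes are shown, that of *Lrrc15* because it chose the cells and that of *Tnn* because its ratio of members over reference was the highest. Each is the 250 bases before the RefSeq start on the GRCm38.p6 build, written 5′ to 3′ on the gene's own minus strand, chr16:30283255-30283504 for *Lrrc15* and chr1:160153576-160153825 for *Tnn*. Capitals mark matches to any of 3 motifs searched on both strands, TGANTCA for AP-1, GGAATG for TEAD and TGTGGT for RUNX.
Lrrc15: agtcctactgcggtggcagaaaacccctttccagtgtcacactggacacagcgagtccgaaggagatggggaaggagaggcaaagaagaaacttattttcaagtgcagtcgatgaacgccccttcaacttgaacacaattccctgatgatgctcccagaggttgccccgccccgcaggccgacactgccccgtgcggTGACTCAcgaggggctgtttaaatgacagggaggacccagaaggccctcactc
Tnn: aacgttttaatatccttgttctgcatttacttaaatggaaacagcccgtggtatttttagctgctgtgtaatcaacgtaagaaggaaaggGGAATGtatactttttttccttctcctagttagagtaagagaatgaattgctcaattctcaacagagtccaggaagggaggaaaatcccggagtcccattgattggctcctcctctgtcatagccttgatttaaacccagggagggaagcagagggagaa
*Lrrc15* held 1 AP-1 match in this window, 53 to 47 bases before the start, and *Tnn* held 1 TEAD match, 160 to 155 bases before it. Over all 32851 RefSeq promoters of the same length, 6.75% held the AP-1 letters, 12.6% the TEAD letters and 14.0% the RUNX letters. For the 12 genes with the highest ratios described further on, the RefSeq table had 9 promoters of 8 genes, of which 0 held an AP-1, 4 a TEAD and 0 a RUNX match. For the 12 genes with the lowest ratios it had 9 promoters of 9 genes, of which 2 held an AP-1, 3 a TEAD and 1 a RUNX match. A match is a description of the letters and not a binding site.

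Among gated Day 7 fibroblasts, 36.6% (35.3 to 37.9%) were *Lrrc15*-positive. On Day 14 the same limits gave 800 of 7052 cells, or 11.3% (10.6 to 12.1%), and on Day 3 they gave 25 of 53 cells, or 47.2% (33.3 to 61.4%). The limit on *Cxcl5* left out 153 other Day 3 fibroblasts, of which 83.7% had an *Lrrc15* UMI, so the Day 3 share covers a small part of that day's fibroblasts. On Day 7 the same limit left out 508 cells, of which 92.5% had an *Lrrc15* UMI. The limits on division genes and on *Acta2* left out 259 and 239 Day 7 cells, of which 89.6% and 98.3% had one. A limit in UMIs takes in more of the deeply sequenced cells, and members held a median of 12025 UMIs against 8586 in the reference and 34266 in the gated cells of Day 3. Among cells of 8000 to 16000 UMIs, the shares were 41.4% (1449 of 3504) on Day 7 and 11.1% (450 of 4057) on Day 14. With every cell thinned to 2000 UMIs, 31.0% (29.8 to 32.3%) of gated cells on Day 7 kept an *Lrrc15* UMI, against 18.9% (9.44 to 32.0%) on Day 3 and 11.6% (10.8 to 12.3%) on Day 14. The interval of Day 3 overlapped that of each of the other days, while those of Days 7 and 14 lay apart. These intervals hold counting error within 1 library per day and do not measure the spread between wounds, so no difference between days was tested. Macrophage-gated cells, which should lack the gene, gave 1.18% for the 85 cells of Day 3, 1.43% for the 699 of Day 7 and 0.294% for the 681 of Day 14. Before thinning the shares were 60.4%, 58.1% and 29.4% in the fibroblast gate and 1.18%, 3.15% and 1.62% in macrophage-gated cells, at median depths of 2492, 4048 and 4625 UMIs in the latter.

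**Figure D1:**
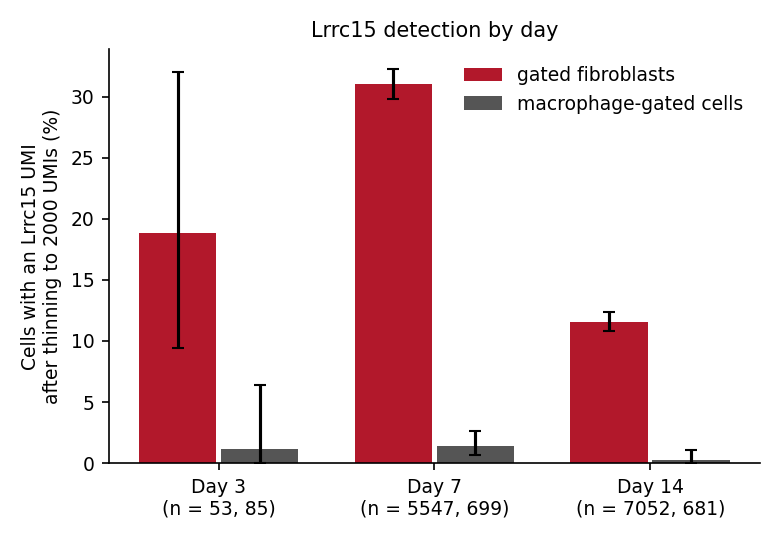
Bars give the percent of gated fibroblasts and of macrophage-gated cells with an *Lrrc15* UMI after every cell was thinned to 2000 UMIs, with Clopper-Pearson intervals and the number of cells of each gate under each day. The Day 7 fibroblasts stand highest at 31.0%, and macrophage-gated cells stay at 1.43% or below on each day.

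The fibroblast gate was checked against marker genes, and the *Lrrc15* label was not. *Col1a1* and *Col3a1*, fibrillar collagen genes that the gate did not use, were at 41575 and 32647 CPM in members and at 43560.2 and 37475 CPM in the reference, so both groups carried fibroblast transcripts at close levels. The label's other 5 markers came from the same Day 7 contrast, so their higher levels in members describe the choice and do not check it. *Plod2*, which hydroxylates lysines of collagen for cross-linking, was at 392 against 125 CPM, a log2 ratio of 1.65 (1.58 to 1.71). *Il1rl1*, the receptor for IL-33, was at 182 against 60.6 CPM (log2 ratio 1.59, 1.498 to 1.68). *H19*, an imprinted noncoding RNA of growing tissue, was at 556 against 199.7 CPM (log2 ratio 1.48, 1.43 to 1.53). At these depths 3 or more UMIs of *H19* were counted in 37.7% of members and of *Il1rl1* in 21.8%, against 14.1% and 6.50% of the reference, which does not show that the other cells lacked them. *Col5a3*, a minor fibrillar collagen chain, was at 1158 against 429 CPM (log2 ratio 1.43, 1.40 to 1.47), and *Plagl1*, an imprinted zinc finger gene, at 268 against 137 CPM (log2 ratio 0.97, 0.90 to 1.03).

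Markers of other cell types were summed in both groups, and their part in the ratios was not tested beyond the counts that close this paragraph. The 10 macrophage and dendritic cell markers had the highest sum, 542 CPM in members and 726 CPM in the reference, and 5 of them had at least 50 CPM in 1 group. The 6 neutrophil markers summed to 77.2 and 149 CPM, and the 6 T cell markers to 1.41 and 2.82 CPM. Endothelial markers (6 genes) summed to 20.6 and 21.3 CPM, and pericyte and smooth muscle markers (7 genes) to 67.0 and 66.4 CPM. Keratinocyte markers (7 genes) summed to 24.6 and 71.9 CPM, Schwann cell markers (6 genes, with *Sox10* at 0 in both groups) to 5.55 and 15.4 CPM, and tendon markers (5 genes, with *Chad* at 0 in both groups) to 10.8 and 4.40 CPM. Doublet scores were above the limit in 26.6% of members and 19.2% of reference cells, and leaving these barcodes out gave 34.8% *Lrrc15*-positive cells. Without barcodes over the doublet limit 115 genes were at least 2-fold higher and 142 lower in members, without cells holding 2 or more UMIs of other lineages 91 and 119, and among cells of 8000 to 16000 UMIs 87 and 116, beside the 88 and 113 found in all cells.

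Most reference cells carried *Pi16*, *C3* or both. At least 3 UMIs of *Pi16* were counted in 57.9% of reference cells and at least 3 of *C3* in 66.4%, against 9.85% and 18.1% of members. Only 528 reference cells had fewer than 3 of both genes. A ratio of members over reference therefore sets *Lrrc15*-positive cells mainly beside cells with *Pi16* or *C3*, and a named gene that loses its 2-fold difference when those cells are left out is given that value too. Without them the log2 ratio was 0.75 for *H19*, 0.98 for *Col5a3*, 1.10 for *Plod2* and 1.67 for *Il1rl1*.

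Of 2823 genes with at least 50 CPM in 1 group and at least 10 UMIs in each, 88 (3.12%) were at least 2-fold higher in members and 113 (4%) at least 2-fold lower, and the median log2 ratio was 0.16. Among the 528 reference and 1602 member cells with fewer than 3 UMIs of *Pi16* and of *C3*, 56 genes were at least 2-fold higher and 64 lower, and 48 and 55 of these were among the genes counted above. *Tnn* (ENSMUSG00000026725, tenascin W), an extracellular protein of developing bone and tumour stroma, stood at 131 CPM in members and 3.71 CPM in the reference, a log2 ratio of 5.14 (4.81 to 5.49). *Tagln* (ENSMUSG00000032085, transgelin), an actin-binding protein of smooth muscle and myofibroblasts, stood at 77.4 against 3.90 CPM (log2 ratio 4.31, 3.98 to 4.65). *Crabp1*, which binds retinoic acid inside the cell, stood at 82.9 against 4.45 CPM (log2 ratio 4.22, 3.92 to 4.54). These 3 genes were near background in the reference. After thinning to 2000 UMIs, a depth at which a cell of low level often keeps no UMI, a UMI was left in 17.2%, 10.2% and 8.57% of members. The shares were 0.775%, 0.560% and 0.861% in the reference and 1.14%, 0.715% and 0.715% in macrophage-gated cells.

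*Tnc* (ENSMUSG00000028364, tenascin C), a matrix protein laid down in wounds, stood at 915 CPM in members and 52.2 CPM in the reference (log2 ratio 4.13, 4.04 to 4.22), and 3 or more UMIs were counted in 62.3% of members and 2.80% of the reference. Without *Pi16* and *C3* cells the log2 ratio was 2.52 for *Tnc*, 4.08 for *Tnn* and 3.73 for *Tagln*. The adhesion molecule *Ncam1* was at 128 against 9.88 CPM (log2 ratio 3.70, 3.49 to 3.91). *Col12a1*, a collagen that binds along fibrils, was at 795 against 102 CPM (log2 ratio 2.96, 2.90 to 3.03). The other genes of the highest 12 were *Prss35* at a log2 ratio of 3.63, *C1qtnf3* at 2.94, *Hmcn1* at 2.94, the tropomyosin gene *Tpm2* at 2.84, *Tcim* at 2.78 and *Mical2* at 2.31.

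Genes at the other end included those that mark *Pi16* and complement-producing fibroblasts. *Pi16* (ENSMUSG00000024011) stood at 69.9 CPM in members and 671 CPM in the reference (log2 ratio -3.26, -3.34 to -3.19), and *Scara5*, a ferritin receptor of the same kind of cell, at 17.4 against 182 CPM (log2 ratio -3.38, -3.53 to -3.24). *C3* (ENSMUSG00000024164), the central complement component, stood at 135 against 906 CPM (log2 ratio -2.75, -2.80 to -2.69). *Pcolce2*, an enhancer of procollagen processing, was the lowest of the genes over the limits, at 10.5 against 139 CPM (log2 ratio -3.72, -3.91 to -3.54). *Edn1*, the vasoconstrictor endothelin 1, was at 8.20 against 82.2 CPM (log2 ratio -3.32, -3.54 to -3.12), and *Lbp*, which binds bacterial lipopolysaccharide, at 69.9 against 485 CPM (log2 ratio -2.79, -2.87 to -2.72). The remaining 6, with log2 ratios between -2.93 and -2.58, were *Efhd1*, *Akr1c18*, *Entpd2*, *Zbtb16*, *Cadm3* and *Il1r2*, the decoy receptor for IL-1. *Il1r2* is also a neutrophil gene, and it made up most of the difference in the summed neutrophil markers given above.

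Levels were graded over the number of *Lrrc15* UMIs per cell. Among cells of 8000 to 16000 UMIs, *Tnc* stood at 36.4 CPM with 0 *Lrrc15* UMIs, 128 with 1, 299 with 2, 495 with 3 to 4, 951 with 5 to 9 and 1569.6 with 10 or more. *Tagln* stood at 3.59, 4.35, 9.71, 24.4, 61.3 and 171 CPM over the same bins. *Pi16* went the other way, with 632, 351, 199, 91.4, 41.1 and 16.8 CPM. Within this range of UMIs depth still differed, with medians of 10351 UMIs in cells without *Lrrc15* and 12569 in the highest bin. Of the label's markers, *H19* was lower in the highest bin than in the bin before it with intervals that lay apart, while those of *Il1rl1*, *Plod2*, *Col5a3* and *Plagl1* overlapped. *H19* stood at 182, 358, 642, 537, 679 and 508 CPM, and *Plagl1* at 139.9, 189, 261, 255, 271 and 275 CPM. Cells just inside the limit, with exactly 3 *Lrrc15* UMIs, had 425 CPM of *Tnc*, 569 of *H19* and 109.8 of *Pi16*, and cells just outside it, with 2, had 299, 642 and 199 CPM. Against all cells with 1 or 2 UMIs in place of 0, 21 genes were at least 2-fold higher in members and 25 lower, *Tnc* was at a log2 ratio of 1.96, *Tagln* at 2.94, *H19* at 0.31 and *Pi16* at -2.02.

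**Figure D2:**
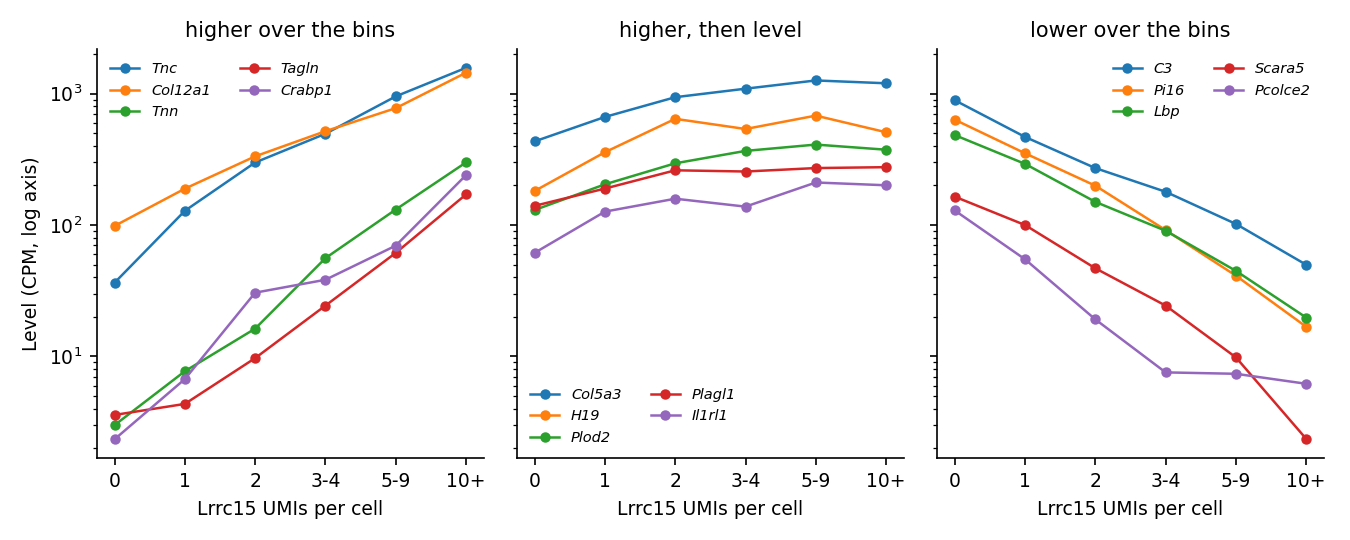
Levels in CPM (log axis) over *Lrrc15* UMIs per cell, for Day 7 gated cells of 8000 to 16000 UMIs. *Tnc*, *Col12a1*, *Tnn*, *Tagln* and *Crabp1* increase up to the highest bin, *H19* is lower in the highest bin than in the bin before it, and *C3*, *Pi16*, *Lbp* and *Scara5* decrease from bin to bin.

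The same contrast in the Day 14 library, which played no part in choosing the Day 7 cells, gave the same directions for the leading genes. Over all 2644 genes above the limits on that day, 62 (2.34%) were at least 2-fold higher in the 800 *Lrrc15*-positive cells than in the 4978 cells with none, and 57 (2.16%) were at least 2-fold lower. Of the 12 genes highest on Day 7, 12 lay above 0 on Day 14, as did 1858 of all 2644 genes. There 9 passed the limits, each at least 2-fold higher. Among these, *Tagln*, *Crabp1*, *Tnc*, *Ncam1*, *Prss35*, *Hmcn1* and *Tpm2* passed only through their level in *Lrrc15*-positive cells. Of the 12 lowest, 12 lay below 0 and 9 passed, each at least 2-fold lower. Among these, *Scara5*, *C3*, *Akr1c18*, *Cadm3* and *Il1r2* passed only through *Lrrc15*-0 cells. Genes that passed through 1 group only had to differ, so these counts are a description. *Tnn*, which was under the limits on Day 14, was at 29.6 against 1.10 CPM (log2 ratio 4.74, 4.33 to 5.18). Over the limits were *Tnc* at 645 against 48.7 CPM (log2 ratio 3.73, 3.66 to 3.80) and *Prss35* at 114 against 2.13 CPM (log2 ratio 5.74, 5.45 to 6.03). *C3* was at 29.5 against 181 CPM (log2 ratio -2.62, -2.79 to -2.46) and *Scara5* at 20.9 against 128 CPM (log2 ratio -2.62, -2.81 to -2.43). The markers were less far apart on Day 14 than on Day 7, at log2 ratios of 1.14 (1.03 to 1.24) for *Il1rl1*, 1.10 (1.01 to 1.19) for *Plod2*, 0.57 (0.53 to 0.62) for *Col5a3* and 0.50 (0.42 to 0.58) for *Plagl1*, except for *H19* at 1.63 (1.53 to 1.72). Of all 88 genes at least 2-fold higher on Day 7, 62 passed the limits on Day 14 and 34 of these were at least 2-fold higher there, and of the 113 lower genes 96 passed and 42 were at least 2-fold lower.

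**Figure D3:**
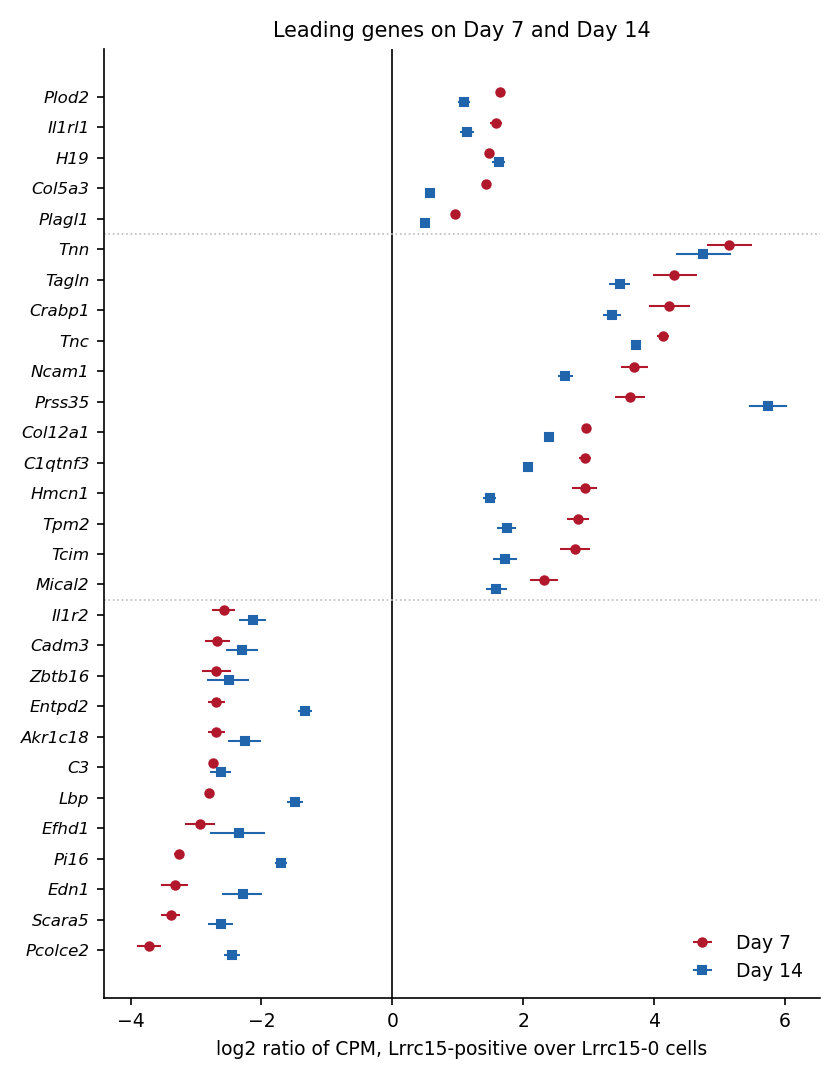
Log2 ratios of CPM, *Lrrc15*-positive over *Lrrc15*-0 gated cells, on Day 7 (circles) and Day 14 (squares), with exact conditional binomial intervals, for 5 markers and the 12 highest and 12 lowest genes of Day 7. Every gene lies on the same side of 0 on both days, and *Prss35* and *H19* are further from 0 on Day 14.

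Levels in *Lrrc15*-positive cells themselves differed between the 3 libraries. *H19* stood at 124 (103 to 147) CPM in the 25 cells of Day 3, 556 CPM on Day 7 and 125 CPM on Day 14, and *Tnn* at 14.1 (7.69 to 23.6), 131 and 29.6 CPM. Both were highest on Day 7. *Plod2* was lower at each later day, with 786 (732 to 843), 392 and 131 CPM. *C1qtnf3*, a secreted protein of the C1q and TNF family, was in the opposite order, with 11.1 (5.52 to 19.8), 385 and 1137 CPM. *Il1rl1* stood at 159.8 (136 to 187), 182 and 98.0 CPM, with the Day 7 value inside the Day 3 interval. In *Lrrc15*-0 cells *H19* was at 41.6 (26.7 to 61.9), 199.7 and 40.6 CPM, so its Day 7 level was also the highest of the 3 there. *Plod2* at 269, 125 and 61.1 CPM and *C1qtnf3* at 1.73, 50.1 and 271 CPM kept their orders in *Lrrc15*-0 cells too. *Tnn* at 6.94 (1.89 to 17.8), 3.71 and 1.10 CPM and *Il1rl1* at 19.1, 60.6 and 44.6 CPM did not. *Lrrc15* itself stood at 211 (183 to 242), 552 and 481 CPM in the *Lrrc15*-positive cells, so the limit in UMIs chose cells of unlike *Lrrc15* level by day. The part of this in the other levels was not tested. The Day 3 values rest on 25 and 21 cells, and no ratio was formed for that day.

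Cells with high *Acta2*, the mark of myofibroblasts, were compared next. The Day 7 library held 239 cells that passed the same gate except for *Acta2* at or above its limit, at a median of 12056 UMIs against 12025 in members, and *Lrrc15* itself was higher in them, at 954 CPM against 552 CPM. Of 2987 genes above the limits, 182 (6.09%) were at least 2-fold higher in members and 62 (2.08%) at least 2-fold lower, with a median log2 ratio of -0.16. *Acta2* parted these groups and *Lrrc15* chose the members, so this comparison too is a description. Contractile genes were lower in members, as *Tagln* at 77.4 against 1058 CPM (log2 ratio -3.77, -3.85 to -3.69), *Tpm2* at 119 against 591 CPM (log2 ratio -2.32, -2.40 to -2.23) and the myosin light chain *Myl9* at 37.9 against 392 CPM (log2 ratio -3.37, -3.50 to -3.25). The matrix genes *Tnc* and *Tnn* were lower too, at log2 ratios of -1.34 (-1.38 to -1.30) and -2.03 (-2.12 to -1.95). *Col7a1*, which anchors the epidermis to the dermis, and *Inhba*, a TGFβ family ligand, were at a log2 ratio of -2.49 and -2.27. In *Actg2*, *Ptprn* and the pericyte gene *Rgs5*, which complete the lowest 8, the ratios were -4.75, -2.58 and -2.69, and members held 3.01, 8.44 and 12.4 CPM of them.

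Of the label's markers, *Lrrc15* itself was lower in members than in *Acta2*-high cells, at 552 against 954 CPM. The others were higher in members by unlike amounts, and only *H19* and *Plagl1* by at least 2-fold. *H19* was at 556 CPM in members and 218 CPM in *Acta2*-high cells (log2 ratio 1.35, 1.24 to 1.47), *Plagl1* at 268 against 86.8 CPM (log2 ratio 1.63, 1.45 to 1.81) and *Il1rl1* at 182 against 93.9 CPM (log2 ratio 0.96, 0.78 to 1.14). For *H19* the *Acta2*-high cells stood near the reference level of 199.7 CPM, and for *Plagl1* they stood below the reference. *Col5a3* and *Plod2* differed less, at 0.16 (0.11 to 0.21) and 0.51 (0.40 to 0.61). The 8 genes highest in members were *Dlk1* at a log2 ratio of 3.55, *Tnxb* at 3.50, *Saa3* at 3.27, *Ly6c1* at 3.11, *Mmp3* at 3.03, *Clec3b* at 2.95, *Sfrp4* at 2.93 and *Has1* at 2.90. Of these, *Tnxb*, *Ly6c1*, *Mmp3*, *Clec3b*, *Sfrp4* and *Has1* were lower in members than in the reference, so members lay between the groups, while *Dlk1*, an imprinted gene of the Notch ligand family, was at 51.9 CPM in members, 28.3 in the reference and 4.44 in *Acta2*-high cells. Against cells with 1 or 2 *Lrrc15* UMIs the ratio of *Dlk1* was -0.25, below 0.

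**Figure D4:**
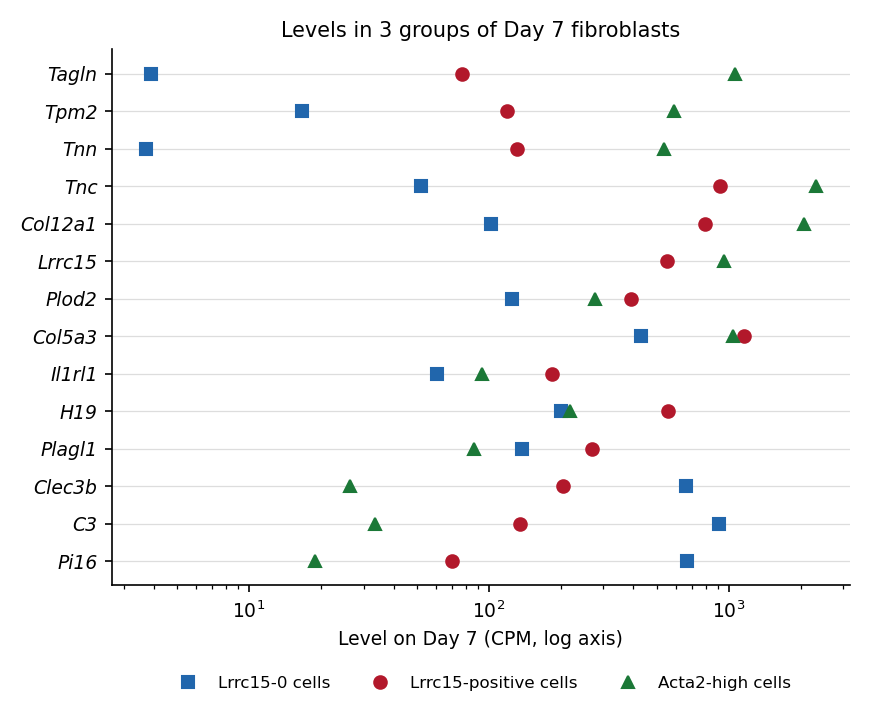
Levels in CPM (log axis) of 14 genes in reference cells (squares), *Lrrc15*-positive cells (circles) and *Acta2*-high cells (triangles) of Day 7. Members lie between the other groups for *Tagln*, *Tnn*, *Tnc*, *C3* and *Pi16*, and above both for *Plod2*, *Col5a3*, *Il1rl1*, *H19* and *Plagl1*, and *Lrrc15* has no reference point because those cells were chosen to have none.

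Genes were then followed by group, with counts of members over the limits set beside the 3.12% higher and 4% lower of all genes. Beside the median of each list, the median over all genes was 0.16 on Day 7 and 0.12 on Day 14. A gene that passed the limit of 50 CPM only through the group where it was high had to differ, so these counts describe the lists and support no statement about them. Of 21 contractile genes 14 passed the limits, 8 were at least 2-fold higher and 0 lower, and the median log2 ratio was 1.26. Of these 8, *Tagln*, *Tpm2*, *Actn1*, *Cnn2* and *Csrp1* passed only through their level in members, and *Tpm1*, *Tpm4* and *Palld* were over 50 CPM in both groups. *Tpm1* was at 324 against 99.2 CPM (log2 ratio 1.71, 1.64 to 1.78), the actin cross-linker *Actn1* at 117 against 27.0 CPM (log2 ratio 2.12, 1.99 to 2.25) and *Palld* at 298 against 95.6 CPM (1.64). *Acta2*, whose upper limit chose the cells, was itself at 16.3 CPM in the reference and at 86.0, 169 and 330.4 CPM in members with 3 to 4, 5 to 9 and 10 or more *Lrrc15* UMIs. With *Acta2* held under 0.05% of UMIs the log2 ratio was 3.67 for *Tagln*, 2.51 for *Tpm2*, 1.96 for *Actn1* and 2.16 for *Myl9*, which was 2.74 before. Against *Acta2*-high cells 11 of 17 contractile genes over the limits were at least 2-fold lower, beside 2.08% of all genes in that comparison. The median was -1.42, beside -0.16 over all genes. Those cells were chosen by high *Acta2*, a contractile gene, so this count is a description.

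Collagen genes did not differ as one. *Col5a2* at a log2 ratio of 0.58 and *Col5a3* were higher and *Col1a1* and *Col3a1* were at -0.07 and -0.20, so 2 of the 5 fibrillar collagens over the limits, *Col27a1* (1.96) and *Col5a3*, were at least 2-fold higher. Of 20 other collagens 11 passed, 4 were at least 2-fold higher and 3 lower. *Col8a1*, a short-chain collagen of vessel walls and wounds, was at 82.2 against 17.7 CPM (log2 ratio 2.22, 2.05 to 2.38) and *Col6a3*, a chain of the microfibrillar collagen VI, at 2632 against 1263 CPM (log2 ratio 1.06, 1.04 to 1.08). The basement membrane chains *Col4a1* and *Col4a2* were lower, at a log2 ratio of -1.63 and -1.49, and *Col6a5* was at -1.97. *Col8a1* and *Col6a3* were at log2 ratios of 0.83 and 0.57 when *Pi16* and *C3* cells were left out. Of the enzymes that modify and cross-link collagen 21 passed and 18 of these lay above 0, as did 1871 of all 2823 genes, with *Loxl2* at 595 against 254 CPM (log2 ratio 1.23, 1.18 to 1.28), *Loxl3* at 0.95, the prolyl hydroxylase *P4ha3* at 0.92 and *Lox* at 0.67, a median of 0.57. *Plod2* and *Loxl2* were the 2 of these at least 2-fold higher, and *Pcolce2* the 1 lower.

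Matricellular and provisional matrix genes split. Of 30, 26 passed, 7 were at least 2-fold higher and 3 lower, with a median of 0.06. *Postn*, periostin, stood at 6759 against 2687 CPM (log2 ratio 1.33, 1.32 to 1.34), *Ccn4*, a Wnt-induced secreted protein, at 161 against 42.5 CPM (log2 ratio 1.92, 1.81 to 2.03) and *Thbs2*, thrombospondin 2, at 890.4 against 280.0 CPM (log2 ratio 1.67, 1.63 to 1.71). On the lower side were *Prelp* at -1.15, *Smoc2* at -1.45 and elastin, *Eln*, at 78.2 against 415 CPM (log2 ratio -2.41, -2.48 to -2.34). Among proteinases and inhibitors *Adam12*, a disintegrin of fibrotic stroma, was at 227 against 74.3 CPM (log2 ratio 1.61, 1.53 to 1.70) and *Timp1* at 1.04, while *Timp2* was at -0.91 and *Adamts5*, which cleaves versican and aggrecan, at -1.14. Without *Pi16* and *C3* cells the log2 ratio was 0.75 for *Timp1*, -0.57 for *Adamts5*, 0.86 for *Postn* and -0.89 for *Prelp*, all under 2-fold. Among cells of 8000 to 16000 UMIs *Timp1* was at a log2 ratio of 0.91.

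Genes that accompany *LRRC15* in stroma of tumours were present in part. Of the 12 listed, 6 passed the limits, of which *Ncam1*, *Adam12* and *Sdc1* were at least 2-fold higher and 0 were lower. Without *Pi16* and *C3* cells the log2 ratio of *Adam12* was 0.91 and that of *Sdc1* 0.54, both under 2-fold. *Cthrc1*, a secreted protein of activated fibroblasts, was at 1365 against 727 CPM (log2 ratio 0.91, 0.88 to 0.94). *Fap*, fibroblast activation protein, was at 55.3 against 51.5 CPM (log2 ratio 0.10, -0.02 to 0.22), an interval that holds 0, and *Wnt2* was lower at -0.93. The others were under the limits. *Col10a1* had no UMI in either group, *Comp* was at 0 and 0.247 CPM and *Gjb2* at 0.156 and 0.0988 CPM. *Inhba*, *Mmp11* and *Col11a1* were higher in members, at 38.7 and 7.66, 30.5 and 10.8, and 27.5 and 5.58 CPM. The log2 ratio of *Inhba* was 2.34, and 0.79 without *Pi16* and *C3* cells, under 2-fold.

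Complement genes and genes shared by *Pi16*-positive fibroblasts of many tissues were lower together. All 8 complement genes that passed, of 10 listed, were at least 2-fold lower, with a median of -1.35. They included *C4b* at 99.0 against 485 CPM (log2 ratio -2.29, -2.36 to -2.23), the inhibitor *Serping1* at 659 against 1585 CPM (-1.27), *C1ra* at -1.24 and *C1s1* at -1.17. Without *Pi16* and *C3* cells *C1ra*, *C1s1* and *Cfb* were at log2 ratios of -0.93, -0.99 and -0.90, under 2-fold. Of 18 universal fibroblast genes 17 passed, 11 were at least 2-fold lower and 17 lay below 0, with a median of -1.35. *Clec3b*, tetranectin, was at 203 against 663 CPM (log2 ratio -1.70, -1.75 to -1.66), *Gsn*, the actin-severing gelsolin, at 334 against 1611 CPM (log2 ratio -2.27, -2.31 to -2.24) and *Dpt* at only -0.39. On Day 14, 8 of 17 universal and 3 of 7 complement genes over the limits were at least 2-fold lower, beside 2.16% of all genes there. The medians were -0.85 and -0.95. Without cells of 3 or more *Pi16* or *C3* UMIs the Day 7 log2 ratio was -2.21 for *C4b*, -1.61 for *Clec3b*, -1.61 for *Gsn* and -3.51 for *Scara5*. Cells of that kind with fewer UMIs of both genes may remain in that comparison.

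Among imprinted genes of growth, *H19* and *Mest* stood out. Of 22, 13 passed the limits, these 2 were at least 2-fold higher and 0 lower, and the median was 0.24 beside 0.16 over all genes. Neither gene stayed 2-fold higher without *Pi16* and *C3* cells, where the log2 ratio of *Mest* was 0.93 and that of *H19* 0.75. *Mest* was at 86.2 against 18.3 CPM (log2 ratio 2.23, 2.07 to 2.40) on Day 7 and at 85.9 against 86.6 CPM (log2 ratio -0.01, -0.11 to 0.09) on Day 14. *Meg3*, a maternally expressed noncoding RNA, was at 2468 and 2396 CPM, and *Igf2*, the neighbour of *H19*, was at 3.44 and 7.36 CPM, under the limit. *Ndn* and *Sgce* were below 0, at a log2 ratio of -0.35 and -0.31.

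In its receptor family *Il1rl1* was the 1 gene over the limits that lay above 0. Of 14 genes of IL-33 and the IL-1 receptor family 7 passed, *Il1rl1* was at least 2-fold higher, *Il1r2* at least 2-fold lower and the median was -0.51. The ligand *Il33* was at 123 against 169 CPM (log2 ratio -0.47, -0.54 to -0.40) on Day 7 and at 0.47 (0.40 to 0.54) on Day 14, and *Il1r1*, the receptor for IL-1, at 67.1 against 73.1 CPM (log2 ratio -0.12, -0.23 to -0.02). *Irak3*, an inhibitor of this signalling, was at a log2 ratio of -0.98, and *Il1rap*, the shared co-receptor, was under the limit at 10.2 and 20.9 CPM.

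Genes of TGFβ supply and response gave no single picture. Of 15 ligands, latency proteins and receptors 7 passed, with *Tgfb2* at 159 against 89.8 CPM (log2 ratio 0.82, 0.74 to 0.90), *Tgfbr2* at -0.43 and the latency protein *Ltbp1* at -1.15, the 1 gene past 2-fold. The log2 ratio of *Ltbp1* was -0.58 when *Pi16* and *C3* cells were left out. *Tgfb1* was under the limit at 25.9 and 17.1 CPM. Of 16 response genes 9 passed, 0 were 2-fold higher or lower, *Pmepa1* was at a log2 ratio of 0.75 and *Tgfbi* at 0.79, and *Id3*, a target of BMP signals, at -0.86. On Day 14 *Pmepa1* was at 0.88, while *Tgfbi* lay below 0, at -0.84. Among 34 transcription factors 17 passed and *Runx2*, the osteoblast factor, at 63.9 against 18.3 CPM (log2 ratio 1.80, 1.64 to 1.97) and *Sox11*, at 62.4 against 28.0 CPM (log2 ratio 1.15, 1.01 to 1.29), were at least 2-fold higher. The log2 ratio of *Sox11* was 0.74 without *Pi16* and *C3* cells. *Runx1* was just under 2-fold at a log2 ratio of 0.99, and *Klf4* was at 617 against 1208 CPM (-0.97).

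Hypoxia and secretory genes had medians above that of all genes, of which 1871 of 2823 lay above 0. Of 22 hypoxia and glycolysis genes matched by symbol 16 passed, 15 lay above 0 and 4 were at least 2-fold higher, with a median of 0.85 on Day 7 and 0.17 on Day 14. The glucose transporter *Slc2a1* was at 67.6 against 31.6 CPM (log2 ratio 1.10, 0.96 to 1.23), *Ndrg1* at 393 against 187 CPM (log2 ratio 1.07, 1.02 to 1.13) and *Vegfa* at 0.12, while *Adm*, adrenomedullin, was at -0.95. Among cells of 8000 to 16000 UMIs *Slc2a1* was at a log2 ratio of 0.97. Of 21 folding and secretory genes 19 passed, 18 lay above 0 and 0 reached 2-fold, with a median of 0.43, *Pdia4* at a log2 ratio of 0.98 and *Sec61b* at 0.92. Inflammatory and acute-phase genes had a median of -0.37 over 15 of 21, with *Cxcl2* at a log2 ratio of 0.66, *Cxcl1* at 0.47, *Il6* at -0.89 and *Ccl11* at -2.06. Immediate early and heat shock genes, which respond to dissociation, had 0 of 15 past 2-fold and 2 of 15 above 0, with a median of -0.19, *Fos* at a log2 ratio of 0.00 and *Hspa1a* at -0.61. Their part in the other ratios was not tested.

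Among gated cells, division, growth factor and Wnt genes showed few large differences. Of 17 cell cycle genes outside the gate 4 passed and 0 reached 2-fold, with *Tubb5* at a log2 ratio of 0.74 and *Ccnd2* at 0.52. The gate had already left out cells rich in division-gene UMIs, so a difference in division between *Lrrc15*-positive and other fibroblasts was not tested. Of the 259 Day 7 cells left out by that limit, 89.6% had an *Lrrc15* UMI, against 58.1% of gated cells. Median depths were 14565 UMIs in the cells left out and 10106 in gated cells. Of 27 growth factor ligands and receptors 10 passed, 0 were 2-fold higher and *Igfbp4* was 2-fold lower at a log2 ratio of -1.01, which became -0.98 among cells of 8000 to 16000 UMIs and -0.82 without *Pi16* and *C3* cells, with *Pdgfrb* at 0.23 and *Igf1* at 399.5 against 400.5 CPM. Of 20 Wnt and Notch genes 8 passed and 0 reached 2-fold, with the receptor *Fzd2* at a log2 ratio of 0.44 and the Notch target *Hes1* at -0.72.

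Gene sets that the study named from these libraries were placed as well, and they are not independent evidence. The 6 genes of its subcluster F2 (*Postn*, *Col5a3*, *Lgals1*, *Vcan*, *Plod2* and *Loxl2*) all lay above 0, 5 of them at least 2-fold, with *Lgals1*, galectin 1, at 3226 against 1026 CPM (log2 ratio 1.65, 1.63 to 1.68) and *Vcan* at 0.75. The 6 genes of its myofibroblast subcluster F6 that the gate did not use (*Tagln*, *Col12a1*, *Tpm1*, *Cdh11*, *Thbs2* and *Mmp14*) also lay above 0, 5 of them at least 2-fold, with *Cdh11* at a log2 ratio of 1.24 and *Mmp14* at 0.44. The study also named *Lrrc15*, which chose the members, and *Acta2* for F6. In the F2 set *Col5a3* and *Plod2* are markers of the label. Both counts therefore describe the choice of cells and do not place them in a subcluster. Without *Pi16* and *C3* cells the log2 ratios of *Cdh11*, *Postn* and *Col5a3* were 0.51, 0.86 and 0.98, under 2-fold. Against *Acta2*-high cells the medians were 0.22 for F2 and -1.12 for F6. Those cells were chosen by high *Acta2*, an F6 gene of the study, and members were held under the same limit. The lower F6 median is thus a description and does not part the 2 sets. Of the 9 candidate scarring genes, *Itgbl1* was at 101 against 93.2 CPM (log2 ratio 0.12, 0.03 to 0.20) on Day 7 and 405 against 303 CPM (log2 ratio 0.42, 0.37 to 0.47) on Day 14, and its Day 7 ratio was 0.00 among cells of 8000 to 16000 UMIs and -0.18 without *Pi16* and *C3* cells, so no direction is drawn. *Lrrc17* was higher at a log2 ratio of 0.76, *Ccl7* was at -0.15, and *Saa3* was at 0.29 in all cells and -0.09 among cells of 8000 to 16000 UMIs. The other 5, *Pi16*, *C3*, *C4b*, *Clec3b* and *Ccl11*, were at least 2-fold lower.

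*Lrrc15*-positive cells were not uniform. They were split by 3 genes in turn, chosen after their values were seen, among the 1449 members of 8000 to 16000 UMIs, so each split is a description. The 897 cells with at least 3 *Tnc* UMIs had a median of 11781 UMIs and the 319 with none had 11862. *Tnc*-carrying members had more of the contractile genes *Acta2* (log2 ratio 3.36, 3.07 to 3.67) and *Tagln* (log2 ratio 3.69, 3.16 to 4.27), and more *Crabp1*, at 136 against 5.05 CPM (log2 ratio 4.75, 4.10 to 5.49). They also had more *Tnn*, at 205 against 12.2 CPM (log2 ratio 4.07, 3.65 to 4.52), more *Mest* (log2 ratio 3.29, 2.88 to 3.72) and more *Spp1*, osteopontin (log2 ratio 2.18, 2.02 to 2.35). *Lrrc15* itself differed less, at 649 against 392 CPM (log2 ratio 0.73, 0.65 to 0.81). Members without *Tnc* had the higher levels of *Pi16*, at 129 against 21.1 CPM (log2 ratio -2.61, -2.84 to -2.37), of *C3* (log2 ratio -2.11, -2.25 to -1.96) and of *Clec3b* (log2 ratio -1.73, -1.84 to -1.62). The ratios of *Plod2* and *Plagl1* were 0.08 (0.00 to 0.17) and 0.06 (-0.05 to 0.17), with intervals that hold 0.

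Splits by *Il1rl1* and by *H19* were made in the same way. The 304 members with at least 3 *Il1rl1* UMIs, set against 887 with none, had more *H19* (log2 ratio 0.76, 0.70 to 0.82), *Slc2a1* (log2 ratio 0.79, 0.60 to 0.99), *Vegfa* (log2 ratio 0.66, 0.45 to 0.87) and the lipid droplet gene *Hilpda* (log2 ratio 0.59, 0.47 to 0.71). They also had more *Tnc* (log2 ratio 0.65, 0.60 to 0.71), *Tnn* (log2 ratio 0.53, 0.38 to 0.66) and *Crabp1* (log2 ratio 0.29, 0.11 to 0.47), in the direction of the *Tnc* split, in which *Il1rl1* was at 0.77 (0.63 to 0.92). They had less *Mest* (log2 ratio -1.23, -1.47 to -1.01) and *Tagln* (log2 ratio -0.74, -0.99 to -0.49). The 532 members with at least 3 *H19* UMIs, set against 645 with none, had more *Mest* (log2 ratio 1.32, 1.16 to 1.48), *Plagl1* (log2 ratio 0.86, 0.77 to 0.96), the growth factor *Ptn* (log2 ratio 1.04, 0.98 to 1.11) and *Il1rl1* (log2 ratio 0.61, 0.50 to 0.72). They had less *Crabp1* (log2 ratio -1.75, -1.94 to -1.55), *Spp1* (log2 ratio -1.52, -1.63 to -1.41) and *Acta2* (log2 ratio -0.82, -0.94 to -0.70), and less *Tnn* (log2 ratio -0.84, -0.98 to -0.70), *Tagln* (log2 ratio -0.71, -0.90 to -0.51), *Tnc* (log2 ratio -0.41, -0.46 to -0.35) and *Col12a1* (log2 ratio -0.30, -0.35 to -0.24). Among genes whose intervals left out 0 in both splits, the *H19* and *Tnc* splits ran in opposite directions for *Crabp1*, *Spp1*, *Acta2*, *Tnn*, *Tagln*, *Col12a1*, *Lrrc15*, *Col1a1*, *Runx2*, *Slc2a1*, *Hilpda* and *Clec3b*. They ran in the same direction for *Mest*, *Ptn*, *Il1rl1*, *Postn*, *C1qtnf3*, *Col5a3* and *C3*. *Tnc* was lower in members with 3 or more *H19* UMIs, whereas *H19* was at a log2 ratio of 0.29 (0.21 to 0.36) in the *Tnc* split, so the relation of these 2 genes has no single direction here. *Igf2*, which lies beside *H19*, had 34 UMIs in cells with *H19* and 3 in cells without.

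**Figure D5:**
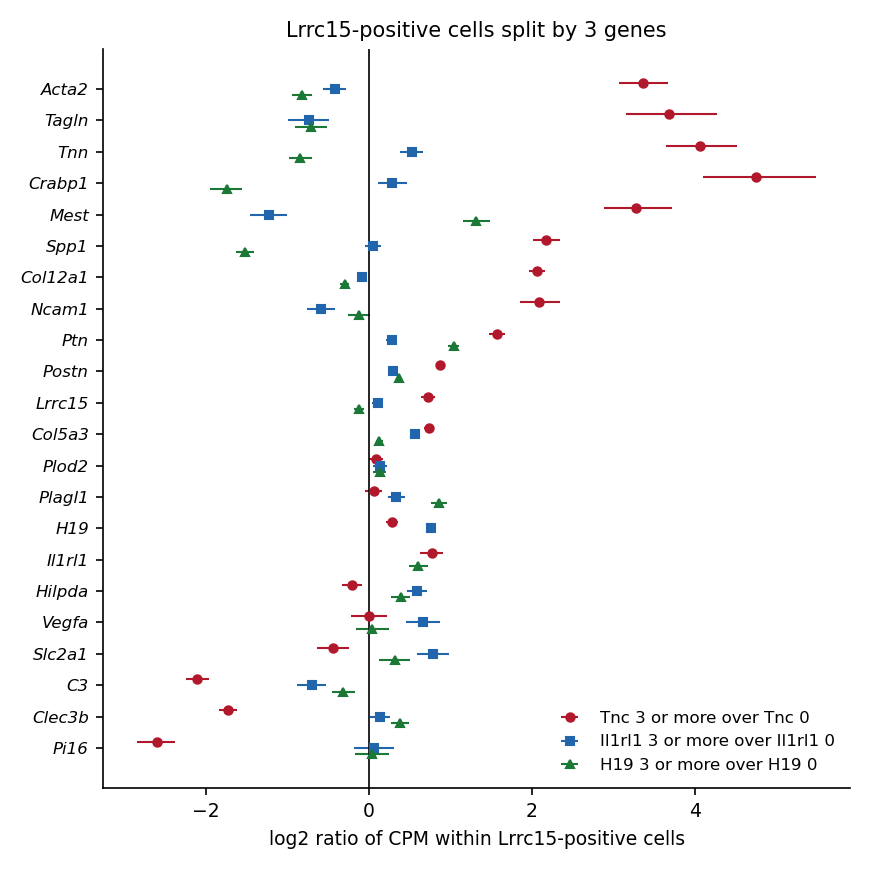
Log2 ratios of CPM, with exact conditional binomial intervals, between *Lrrc15*-positive Day 7 cells with 3 or more and with 0 UMIs of *Tnc* (circles), *Il1rl1* (squares) or *H19* (triangles), among cells of 8000 to 16000 UMIs. *Acta2*, *Tagln* and *Crabp1* lie far above 0 for the *Tnc* split and below 0 for the *H19* split.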

How the data were processed

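Wound tissue was dissociated with an enzyme kit, red cells were lysed, debris was removed, and libraries were made with 10x Chromium 3' v3.1 chemistry. The deposited tables hold raw UMI counts per gene and barcode, which the authors made with Cell Ranger 6.0.0 on mm10 (per the submitters' processing notes). The annotation is not given in the sources used here, and 32158 of 32285 IDs matched a symbol. No aligned or normalised values were used.

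The members, the lists of 454 genes and the comparisons were chosen with earlier results of these data known. Named genes are 6 markers, the 12 highest and 12 lowest ratios on Day 7, the 3 highest and 3 lowest of each of 32 lists, 9 candidate genes of the study and the 8 highest and 8 lowest ratios against *Acta2*-high cells, with gate, mitochondrial and ribosomal protein genes left out. The genes by which members were split were chosen after their values were seen, as were a few list members named beside these. A total of 2 symbols with more than 1 ID stayed out of the lists.

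UMIs were summed per group, which weights deeper cells more. Macrophage-gated cells had at least 1.5% myeloid and under 0.3% fibroblast UMIs. Thinning drew 2000 UMIs per cell without replacement. Doublets were scored by simulated pairs in a nearest-neighbour graph and removed as an alternative only, at 0.8% per 1000 barcodes, which took 4204 barcodes. RNA free in droplets was not subtracted. Interval code was tested on simulated data. Analyses used Python 3.11.15 with NumPy 2.4.6, SciPy 1.17.1, pandas 2.3.3, scikit-learn 1.9.0 and Matplotlib 3.10.9. Alternatives were other depths, *Lrrc15*, *Acta2* and mitochondrial limits, other references, doublets, cells with other lineages' UMIs, 2 scalings and a lower CPM limit.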

Additional observations from a re-analysis of the deposited data

Results flagged for a closer look

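Among the genes over the limits, 3 that were at least 2-fold lower in *Lrrc15*-positive cells on Day 7 lay above 0 on Day 14, with intervals that left out 0 on both days. *Eln*, which encodes elastin, was at 78.2 CPM in *Lrrc15*-positive and 415 CPM in *Lrrc15*-0 cells on Day 7 (-2.41, -2.48 to -2.34) and at 1559 and 1253 CPM on Day 14 (0.32, 0.29 to 0.34). *Mgp*, an inhibitor of calcification in matrix, was at 103 and 265 CPM on Day 7 (-1.37, -1.44 to -1.30) and at 1280.1 and 1124 CPM on Day 14 (0.19, 0.16 to 0.21). *Svep1*, a large adhesion protein of the matrix, was at 55.5 and 118 CPM on Day 7 (-1.09, -1.18 to -0.99) and at 140.2 and 113 CPM on Day 14 (0.31, 0.23 to 0.39). The difference between the days was not tested, since each day is 1 library. The levels of *Eln* and *Mgp* were higher on Day 14 in both groups of cells.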

How the results depend on the processing

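All 66 named genes past 2-fold on Day 7 kept their direction under every alternative run on single genes. The counts of 88 higher and 113 lower genes came to 21 and 25 against cells with 1 or 2 *Lrrc15* UMIs, to 56 and 64 without cells of 3 or more *Pi16* or *C3* UMIs, and to 157 and 178 with a limit of 20 CPM. Under the first 2 of these, 31 and 47 of the 66 named genes were still past 2-fold, and under the others 63 to 66 were. The 21 and 24 of the 25 were among the genes first counted. The share of *Lrrc15*-positive cells was 41.4% among cells of 8000 to 16000 UMIs, 23.7% with at least 5 *Lrrc15* UMIs, 31.0% by *Lrrc15* share of UMIs, 33.7% with *Acta2* under 0.05% and 34.8% without called doublets. Scaling without the 50 most abundant genes moved the median log2 ratio of all genes from 0.16 to 0.09 and gave 77 higher and 129 lower. With 1 library per day the spread between wounds is unknown, and no alternative addresses it. At this depth, genes under 50 CPM were not ranked.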
